A study of Mus musculus with 24 samples.

Results

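The ionotropic glutamate receptors of the AMPA and NMDA classes were followed in mouse spinal cord after spared nerve injury, through the 10 genes that encode their main subunits. The members were chosen by symbol in the deposited expression table and comprised Gria1, Gria2, Gria3 and Gria4 of the AMPA class and Grin1, Grin2a, Grin2b, Grin2c, Grin2d and Grin3a of the NMDA class, 10 of 32884 genes. In spared nerve injury the common peroneal and tibial nerves are tied and cut while the sural nerve is left, which gives a lasting neuropathic pain state. The injured groups were cords taken on day 3, day 7 and day 14, and the control was sham cord, in which the sciatic nerve and its branches were only exposed, labelled day 3. Each group had 3 input RNA-seq libraries and 3 libraries enriched with an antibody to N6-methyladenosine (m6A), 24 in all, made from poly(A)-selected RNA.

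The labels give the tissue as spinal cord and do not state strain, age, sex, cord segment or side. Sham cords of days 7 and 14 were not analysed here, so each later day is set against day 3 sham. Nor do the labels say that libraries came from separate mice, so each p-value measures the spread between these libraries, which may be technical.

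AMPA receptors carry most of the fast excitatory current at spinal synapses and are tetramers of GluA1 to GluA4. NMDA receptors pair the obligatory GluN1 subunit, the product of Grin1, with GluN2 or GluN3 subunits, pass calcium and are blocked by magnesium at rest. Both classes sit on dorsal horn neurons that receive primary afferents, and their activity in these neurons is a textbook element of central sensitisation.

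Input RNA levels are given as FPKM, a fragment count scaled to transcript length and library total, so genes can be compared with one another. FPKM summed to 180340 to 201358 per library, and read depth is unknown. All 6 neuron markers examined (Rbfox3, Snap25, Syt1, Tubb3, Stmn2, Nefl) and all 6 dorsal horn markers were at a mean of at least 1 FPKM over the 12 input libraries. So were all 5 astrocyte, 5 oligodendrocyte and 5 microglia markers, all 3 each of oligodendrocyte precursors, endothelium and blood, and 3 of 5 motor neuron markers. Of 5 dorsal root ganglion markers 1, Prph, reached that level, and of 3 skeletal muscle markers also 1. Of the 12 input libraries, 2 did not resemble their groups: day 7 library 3 and sham library 3. Over 15564 genes their correlation with the other 10 was 0.925 to 0.942, against 0.983 with each other and 0.979 to 0.988 among the other 10. The labels name no batch, so these libraries were recognised from their values alone, and the main comparisons are given with and without them.

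Grin1 was the most abundant member, at 34.0 ± 0.330 FPKM on day 3, 27.8 ± 10.3 FPKM on day 7, 36.7 ± 0.354 FPKM on day 14 and 29.4 ± 9.35 FPKM in sham (mean ± SD, n = 3 libraries in each group here and below). Gria4 and Gria1 followed, at group means of 24.8 to 27.5 and 22.5 to 26.1 FPKM. Gria2 averaged 12.6 to 14.4 FPKM and Gria3 9.79 to 10.3 FPKM. The remaining NMDA genes were lower: Grin3a at 4.96 to 5.89, Grin2d at 4.24 to 4.90, Grin2c at 2.78 to 3.44, Grin2a at 2.39 to 3.28 and Grin2b at 1.97 to 2.73 FPKM. On days 3 and 14 the ranges of neighbours in this order were separate, apart from Grin3a with Grin2d and, on day 14, Grin2a with Grin2b. On day 7 and in sham the top of the order, Grin1 with Gria4 and Gria4 with Gria1, overlapped, as did most of the Grin2 genes.

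**Figure D1:**
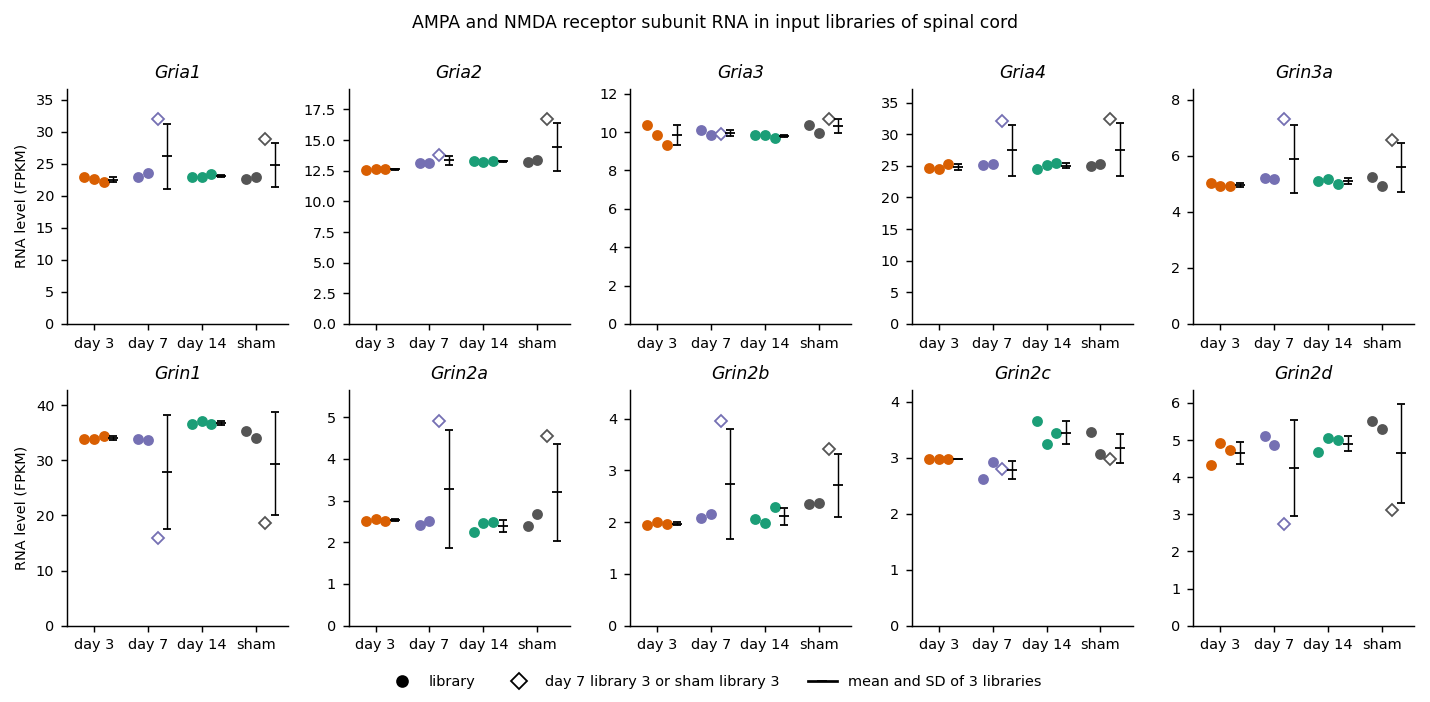
RNA level of each subunit in FPKM (vertical axis, from 0) in the 3 input libraries of day 3, day 7, day 14 and sham, with mean and SD beside them. Open diamonds are day 7 library 3 and sham library 3, which lie below their mates for Grin1 (15.9 and 18.6 FPKM) and Grin2d and above them for Gria1, Gria4, Grin2a, Grin2b and Grin3a.

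Among the AMPA genes, Gria1 encodes GluA1, a subunit known for activity-dependent delivery to synapses. It was at 22.9, 22.6 and 22.1 FPKM on day 3, at 22.9, 23.6 and 31.9 FPKM on day 7 and at 23.0, 22.9 and 23.4 FPKM on day 14, against 22.7, 22.9 and 28.8 FPKM in sham. The high values belonged to day 7 library 3 and sham library 3, and every injured group overlapped sham.

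Gria2 encodes GluA2, whose RNA-edited form keeps AMPA receptors nearly impermeable to calcium. It was at 12.6, 12.6 and 12.6 FPKM on day 3, at 13.1, 13.1 and 13.8 FPKM on day 7 and at 13.3, 13.2 and 13.3 FPKM on day 14, against 13.2, 13.4 and 16.7 FPKM in sham. All day 3 libraries lay below all sham libraries, and days 7 and 14 overlapped sham. With all libraries the log2 fold change on day 3 was -0.18 ± 0.09 (moderated SE, 95% interval -0.37 to 0.01, limma, adjusted p = 0.695). Without day 7 library 3 and sham library 3 it was -0.07 ± 0.02 (limma, adjusted p = 0.0881). Neither passed the threshold of 0.05.

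Gria3 and Gria4 encode GluA3 and GluA4, and GluA4 is known for fast kinetics. Gria3 spanned 9.34 to 10.4 FPKM on day 3, 9.83 to 10.1 FPKM on day 7 and 9.71 to 9.84 FPKM on day 14, against 9.95 to 10.7 FPKM in sham. Only day 14 was separate from sham, at a log2 fold change of -0.07 ± 0.06 with all libraries (limma, adjusted p = 0.700) and -0.05 ± 0.04 without day 7 library 3 and sham library 3 (limma, adjusted p = 0.574). Gria4 spanned 24.5 to 25.4, 25.1 to 32.2 and 24.6 to 25.4 FPKM on days 3, 7 and 14, against 25.0 to 32.4 FPKM in sham, and every injured group overlapped sham.

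Among the NMDA genes, Grin1 was at 33.8, 33.9 and 34.4 FPKM on day 3, at 33.8, 33.8 and 15.9 FPKM on day 7 and at 36.5, 37.1 and 36.5 FPKM on day 14, against 35.4, 34.1 and 18.6 FPKM in sham. The day 14 libraries were the highest of all 12 and did not overlap sham or either earlier day. Against sham the log2 fold change on day 14 was 0.37 ± 0.29 with all libraries (95% interval -0.28 to 1.02, limma, adjusted p = 0.700). Without day 7 library 3 and sham library 3 it was 0.08 ± 0.02 (95% interval 0.03 to 0.13, limma, adjusted p = 0.0732). Grin1 did not pass against sham on any day in either fit.

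Grin2a and Grin2b encode GluN2A and GluN2B, the subunits that set the kinetics and magnesium block of most forebrain NMDA receptors. Grin2a was at 2.51, 2.56 and 2.51 FPKM on day 3, at 2.41, 2.51 and 4.91 FPKM on day 7 and at 2.24, 2.45 and 2.49 FPKM on day 14, against 2.38, 2.67 and 4.54 FPKM in sham. Grin2b was at 1.95, 2.01 and 1.96 FPKM on day 3, at 2.08, 2.15 and 3.95 FPKM on day 7 and at 2.06, 1.99 and 2.29 FPKM on day 14, against 2.35, 2.38 and 3.41 FPKM in sham. Grin2a overlapped sham on every day, while all Grin2b values of days 3 and 14 lay below all sham values. The log2 fold change of Grin2b on day 3 was -0.36 ± 0.20 with all libraries (95% interval -0.80 to 0.08, limma, adjusted p = 0.695) and -0.21 ± 0.06 without day 7 library 3 and sham library 3 (limma, adjusted p = 0.0749). On day 14 it was -0.28 ± 0.20 with all libraries (limma, adjusted p = 0.700) and -0.13 ± 0.06 without them (limma, adjusted p = 0.264).

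Grin2c and Grin2d encode GluN2C and GluN2D, which form receptors with weaker magnesium block, and Grin3a encodes GluN3A, which lowers calcium passage. Grin2c was at 2.97, 2.98 and 2.97 FPKM on day 3, at 2.61, 2.92 and 2.80 FPKM on day 7 and at 3.65, 3.24 and 3.44 FPKM on day 14, against 3.46, 3.06 and 2.97 FPKM in sham. Day 7 lay below sham without overlap, at a log2 fold change of -0.16 ± 0.08 with all libraries (limma, adjusted p = 1) and -0.20 ± 0.07 without day 7 library 3 and sham library 3 (limma, adjusted p = 0.291). Grin2d was at 4.32, 4.92 and 4.72 FPKM on day 3, at 5.11, 4.87 and 2.75 FPKM on day 7 and at 4.67, 5.05 and 4.99 FPKM on day 14, against 5.51, 5.30 and 3.11 FPKM in sham. Its libraries overlapped sham on every day. With day 7 library 3 and sham library 3 left out, all Grin2d values lay below the 2 remaining sham libraries on all 3 days, with a log2 fold change of -0.20 ± 0.06 on day 3 (limma, adjusted p = 0.0804). Against those 2 sham libraries, 39.5%, 42.9% and 36.3% of all tested genes did not overlap sham on days 3, 7 and 14, and among the members 4, 5 and 5 did not. Grin3a spanned 4.91 to 5.03, 5.15 to 7.30 and 4.98 to 5.18 FPKM on days 3, 7 and 14, against 4.91 to 6.58 FPKM in sham, and overlapped sham throughout.

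In the fit of all 12 libraries, none of the 10 members passed against sham on day 3, day 7 or day 14 (limma, Benjamini-Hochberg over all tested genes), and none had an unadjusted p below 0.05. Among all 15564 genes tested, 0.0578% passed on day 3, 0.103% on day 7 and 0.0514% on day 14, and 6.24%, 2.53% and 4.92% had an unadjusted p below 0.05. The smallest adjusted p of a member was 0.695 on day 3, 1 on day 7 and 0.700 on day 14. For day 7, the replicate number was also tried as a block, although the labels give no pairing. Day 7 libraries 1 and 2 each varied more closely with the sham library of the other of these numbers. Library 3 of both groups stood apart, so pairing by number is not shown. A fit of day 7 and sham alone with this block passed 2 genes and 0 members (limma, smallest adjusted p of a member 0.719). The block in the fit of all groups passed 9 genes and 0 members, against 16 genes without it. Groups did not overlap sham in 2 members on day 3 (Gria2, Grin2b), 1 on day 7 (Grin2c) and 3 on day 14 (Grin1, Gria3, Grin2b). Of all tested genes, 20.9%, 4.43% and 18.3% were apart in this way on those days. The members' median log2 fold change was -0.13 on day 3, -0.04 on day 7 and -0.10 on day 14, beside 0.03, 0.01 and 0.03 over all tested genes.

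When day 7 library 3 and sham library 3 were left out, again 0 of 10 members passed against sham on each day (limma), with 3 members below an unadjusted p of 0.05 on day 3 and 1 each on days 7 and 14, where 21.9%, 12.9% and 19.8% of all tested genes were. In that fit 7.07%, 1.11% and 4.71% of all tested genes passed on days 3, 7 and 14. The members' median log2 fold change was then -0.04, -0.03 and -0.0035, beside 0.02, 0.0049 and 0.02 over all genes. The sign against sham turned for Grin1, Grin2a and Grin2d on day 3, for Gria4 and Grin2a on day 7 and for Gria1, Grin2d and Grin3a on day 14.

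**Figure D2:**
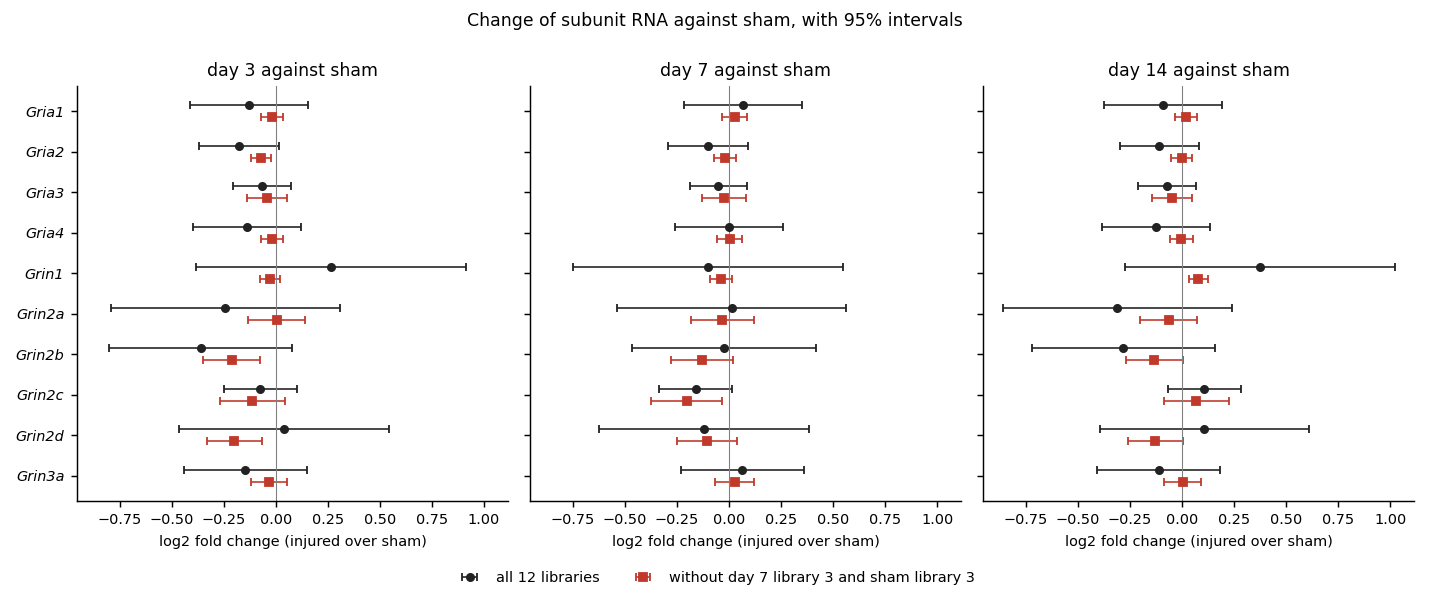
Log2 fold change of each subunit on day 3, day 7 and day 14 against sham (horizontal axis) with its 95% interval, from all 12 libraries (circles) and without day 7 library 3 and sham library 3 (squares). Every interval of the first fit includes 0, and each is narrower when those libraries are left out: for Grin1 on day 14 it is 0.03 to 0.13 without them and -0.28 to 1.02 with them.

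Between injured days, with all libraries, none of the 10 members passed on day 7 against day 3 (0.0129% of all tested genes passed), on day 14 against day 3 (0.0129%) or on day 14 against day 7 (0.0321%). Grin2c had an unadjusted p of 0.0426 on day 14 against day 3 and 0.00649 on day 14 against day 7, with log2 fold changes of 0.18 ± 0.08 and 0.27 ± 0.08. Without day 7 library 3 and sham library 3, 0 members passed on day 7 against day 3 (2.04% of genes), and Grin1 alone passed on day 14 against day 3 (1.99%) and against day 7 (2.69%). Its log2 fold changes were 0.11 ± 0.02 (limma, adjusted p = 0.0303) and 0.12 ± 0.02 (limma, adjusted p = 0.0225). That is a difference of 36.7 ± 0.354 FPKM on day 14 from 34.0 ± 0.330 FPKM on day 3, with all 3 day 14 libraries above all day 3 libraries. Of all tested genes, 21.6% did not overlap on day 14 against day 3 and 17.2% on day 14 against day 7, with all libraries. With all libraries the day 14 against day 3 value was also 0.11, but with an SE of 0.29 (limma, adjusted p = 1.0), since the fit then takes its spread from all 12 libraries. A fit of days 3 and 14 alone, which includes neither day 7 library 3 nor sham library 3, passed 155 genes and 0 members (limma). With a term for those libraries in place of leaving them out, 0 members passed on day 14 against day 3 (41 genes passed) or against day 7 (217 genes).

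The shift in day 7 library 3 and sham library 3 ran in opposite directions within the receptor genes. Grin1 stood at 0.472 and 0.535 times the mean of the other 2 libraries of the same group, and Grin2d at 0.551 and 0.575 times. Grin2a stood at 2.00 and 1.80 times that mean, Grin2b at 1.87 and 1.44 times, Grin3a at 1.41 and 1.29 times, Gria1 at 1.37 and 1.27 times and Gria4 at 1.28 and 1.29 times. Gria3 and Grin2c stayed between 0.911 and 1.05 times, and Gria2 was at 1.05 times in day 7 library 3 and 1.26 times in sham library 3. Of all tested genes, 62.4% and 65.2% lay over 1.2-fold from the mates of the same group. Neuron markers also moved both ways there: Tubb3 was at 154 and 141 FPKM in those libraries, where the other 10 were at 305 FPKM or above, and Syt1 at 29.4 and 32.5 FPKM, where the others were at 23.7 FPKM or below. The 6 neuron markers summed to 1533 to 1545 FPKM on day 3, 1039 to 1545 FPKM on day 7 and 1517 to 1528 FPKM on day 14, against 1109 to 1552 FPKM in sham, with the minima in those libraries. In the other 10 libraries the highest level of a member was 1.04 to 1.28 times its lowest, except Grin2c at 1.40 times.

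Summed markers of microglia and of blood were higher in every injured library than in every sham library. The 5 microglia markers (Cx3cr1, P2ry12, Tmem119, Csf1r, Aif1) summed to 41.0 to 42.0 FPKM on day 3, 39.5 to 44.4 FPKM on day 7 and 35.7 to 37.1 FPKM on day 14, against 25.5 to 32.4 FPKM in sham. The 3 blood markers summed to 263 to 321, 341 to 423 and 219 to 226 FPKM on those days, against 115 to 190 FPKM in sham. The 5 astrocyte markers summed to 493 to 495, 531 to 593 and 422 to 433 FPKM, against 456 to 490 FPKM in sham, so that the sums of days 3 and 7 were above sham and those of day 14 below it. Of these markers, Gfap alone was above sham on day 3 (357 to 359 FPKM, against 296 to 344). Aqp4 (82.9 to 84.5 FPKM, against 92.2 to 101) and Gja1 (27.4 to 28.1, against 28.2 to 28.5) were below it. Aldh1l1 and Slc1a3 overlapped sham on that day. The 5 oligodendrocyte markers summed to 3692 to 3706, 3945 to 4428 and 3482 to 3502 FPKM, against 3515 to 4230 FPKM in sham, and were below sham on day 14. The 6 dorsal horn markers summed to 169 to 172, 141 to 167 and 173 to 176 FPKM, against 154 to 170 FPKM in sham. The part of cell makeup in the receptor levels was not tested. In RNA from cord tissue, fewer cells of a type and less RNA per cell cannot be told apart.

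The subunit makeup of the 2 classes was compared as shares, which do not depend on the scale of a library. Gria2 made up 18.1 ± 0.175% of summed AMPA subunit FPKM on day 3, 17.5 ± 1.5% on day 7 and 18.6 ± 0.170% on day 14, against 18.7 ± 0.153% in sham. The values on days 3 and 7 lay below every sham value, with mean differences from sham of -0.615 and -1.24 percentage points, and day 14 overlapped sham. Exact 2-sided permutation tests gave p = 0.1 on days 3 and 7, the smallest that 3 against 3 libraries allow, and 0.6 on day 14 (0.3, 0.3 and 0.72 after adjustment over 6 share tests). Without day 7 library 3 and sham library 3 the mean differences from sham were -0.536, -0.290 and 0.0153 percentage points on days 3, 7 and 14. Gria4 and Gria1 held 35.2 to 35.7% and 32.2 to 33.8% of the class, and Gria3 13.1 to 14.1%, as group means.

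Grin2a made up 20.9 ± 0.442% of summed Grin2 FPKM on day 3, 24.6 ± 8.17% on day 7 and 18.6 ± 0.799% on day 14, against 23.2 ± 8.02% in sham. The exact permutation p was 1, 0.6 and 0.5 on those days (1, 0.72 and 0.72 adjusted over 6). Mean differences from sham were -2.35, 1.43 and -4.61 percentage points with all libraries and 2.23, 1.29 and -0.0357 points without day 7 library 3 and sham library 3. Grin2d was the largest Grin2 gene in each group mean, at 33.3 to 38.3%, but in day 7 library 3 and sham library 3 it held 19.1 and 22.2% and Grin2a 34.1 and 32.4%. Grin2b stayed below Grin2a in all 12 libraries, at 0.751 to 0.986 times its level. The level of Grin1 was 2.55 to 2.92 times the summed Grin2 level in 10 libraries and 1.11 and 1.33 times in day 7 library 3 and sham library 3. Summed over all 10 members the level was 121 ± 0.0952 FPKM on day 3, 124 ± 1.56 FPKM on day 7 and 126 ± 0.827 FPKM on day 14, against 126 ± 1.92 FPKM in sham.

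**Figure D3:**
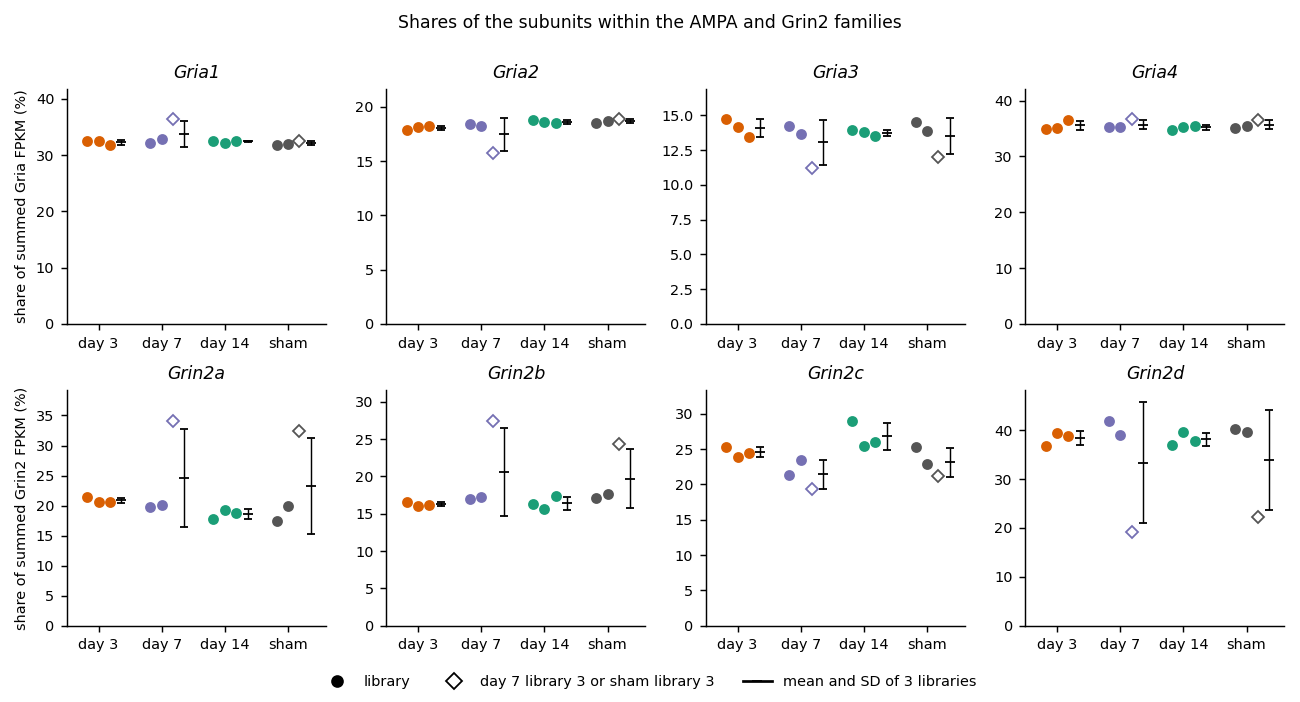
Share of each AMPA gene in summed Gria FPKM (top) and of each Grin2 gene in summed Grin2 FPKM (bottom), in percent from 0, for the libraries of day 3, day 7, day 14 and sham with mean and SD. Open diamonds, day 7 library 3 and sham library 3, show Grin2d at 19.1 and 22.2% with Grin2a at 34.1 and 32.4%.

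The other genes of the glutamate synapse were examined in 5 lists: kainate and delta receptors with Grin3b (8 genes, all tested), auxiliary proteins (16, all tested), scaffolds and trafficking proteins (25, all tested), kinases with a phosphatase and the editing enzyme Adarb1 (11, all tested), and glutamate and D-serine supply and uptake (12, of which 10 were tested). With all libraries, no gene of any list passed against sham on any day (limma). Genes with small p included Fyn, a Src-family kinase that phosphorylates NMDA receptors, at a log2 fold change of -0.26 ± 0.08 on day 3 (limma, adjusted p = 0.654). Nptx2, a secreted pentraxin that clusters AMPA receptors, was at 0.59 ± 0.25 on day 3 (limma, adjusted p = 0.695). Median log2 fold changes of the lists lay between -0.08 and 0.10 over the 3 days.

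With day 7 library 3 and sham library 3 left out, 5 of the 70 listed genes tested passed on day 3 (7.14%), 1 on day 7 (1.43%) and 3 on day 14 (4.29%), close to the 7.07%, 1.11% and 4.71% of all tested genes. Of these, Shank1, Arc and Glul had the opposite sign with all libraries on a day when they passed. On day 3 Shank1, a postsynaptic scaffold, fell by 0.19 on the log2 scale (limma, adjusted p = 0.00489; 0.0053 with all libraries). Arc, an activity-induced gene that drives AMPA receptor endocytosis, fell by 0.33 (adjusted p = 0.00692; 0.04 with all libraries), Fyn by 0.18 (adjusted p = 0.0189) and Dlgap4, another scaffold, by 0.14 (adjusted p = 0.0405). Arc was also lower on day 14, at -0.26 ± 0.05 (limma, adjusted p = 0.0260; 0.11 with all libraries), where Nsf, the ATPase that binds GluA2, was higher, at 0.07 ± 0.01 (limma, adjusted p = 0.0249). Glul, the glutamine synthetase of astrocytes, was higher on day 3 (0.08 ± 0.01, limma adjusted p = 0.00304) and day 14 (0.09 ± 0.01, adjusted p = 0.00251) and lower on day 7 (-0.08 ± 0.01, adjusted p = 0.0104). With all libraries Glul was at -0.18, -0.14 and -0.17 on days 3, 7 and 14, so its sign turned on days 3 and 14. No kainate, delta or auxiliary gene passed in that fit.

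Genes with the most similar pattern were taken by Pearson correlation, as a description, of log2 levels over the 12 libraries among 13469 genes at a mean of at least 1 FPKM. Grin1 was closest to Maged1 (r = 0.998), Ggt7 and Gaa, Gria2 to Map1b (0.975), Gria1 to B3galt1 (0.996), Gria4 to Kdm7a (0.995), Grin2a to Pak3 (0.995), Grin2b to Stk38 (0.989), Grin2d to Myrf (0.985) and Grin3a to Cacna1e (0.987). Gria3 was closest to Ercc4 (0.875) and Grin2c to Eno4 (0.836). The 12 libraries include day 7 library 3 and sham library 3; over the other 10 libraries Grin1 with Maged1 was at 0.945 and Grin3a with Cacna1e at 0.572. Grin1 had 2651 genes with r above 0.9, while Gria3 and Grin2c had 0.

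The m6A data comprise 1 deposited peak list per group, a peak being a stretch of exons where antibody-enriched RNA exceeded input. With 1 list per group there is no replicate check, and differences between lists carry no test. Fold enrichment and p are the authors' own for each peak. N6-methyladenosine is the most common internal mark of mRNA, lies mostly around stop codons and in 3′ UTRs, and is read by proteins that affect mRNA decay and translation.

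All 10 members had at least 1 peak in each of the 4 lists, as did 74.5% of genes at a mean of 2 to 40 FPKM. The members had 39 peaks on day 3, 36 on day 7 and 41 on day 14, against 37 in sham, out of 40195, 34136, 38655 and 32669 peaks. Under stricter limits (2-fold enrichment or more, p no higher than 1e-05), 26, 27 and 25 remained on days 3, 7 and 14, against 29 in sham. That is 66.7, 75.0 and 61.0% of the members' peaks, against 78.4% in sham. Of all peaks, 55.0, 61.4 and 56.8% remained on those days, against 66.8% in sham. The 3′ UTR held 51.3, 52.8 and 56.1% of the members' peaks on days 3, 7 and 14, against 45.9% in sham, and 50.7, 49.3 and 51.5% of all peaks, against 48.4%. The 5′ UTR held 23.1, 19.4 and 22.0%, against 32.4% in sham, and 17.5, 14.2 and 17.2% of all peaks, against 15.3%.

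The peaks of smallest p lay in the 3′ UTRs of Gria4, Gria2 and Gria1 and were in all 4 lists. Where a site held several peaks of a list, the fold enrichment given is that of the peak with the smallest p. In Gria4, on the minus strand of chromosome 9, a site at chr9:4419270-4427103 had a fold enrichment of 14.3, 11.4 and 15 on days 3, 7 and 14, against 11.6 in sham. Its log10 p was -927, -1150 and -1010 on those days, against -1540 in sham. In Gria2, on the minus strand of chromosome 3, a site at chr3:80687861-80689237 had a fold enrichment of 6.82, 7.84 and 7.72, against 7.09 in sham. In Gria1, on the plus strand of chromosome 11, the 3′ UTR site at chr11:57327462-57330244 reached 7.42, 6.87 and 6.55, against 8.69 in sham. Gria3, on the plus strand of chromosome X, had a 3′ UTR site at chrX:41672301-41676833 with 5.26, 5.86 and 5.41, against 5.17 in sham. These 4 sites differed by at most 1.33-fold between lists.

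Among the NMDA genes, Grin1 (minus strand of chromosome 2) had a site in an exon at chr2:25312431-25312671 in all lists, with a fold enrichment of 27.0, 13.3 and 12.5 on days 3, 7 and 14, against 43.9 in sham. Its log10 p was between -15.4 and -12.6. Grin2a (minus strand of chromosome 16) had a 3′ UTR site at chr16:9571493-9572152 with 20.2, 92.1 and 16.8, against 19.2 in sham. The log10 p of this Grin2a site was -84.7, -51.4 and -101 on days 3, 7 and 14, against -39.1 in sham. The fold enrichment of 92.1 thus did not go with the smallest p. Grin2d (minus strand of chromosome 7) had a 3′ UTR site at chr7:45831883-45833982 with 10.7, 7.39 and 10.1, against 25.9 in sham. Those Grin2d values come from peaks of 2040, 931 and 2100 exonic bases on days 3, 7 and 14, against 660 in sham. Other peaks of this site were at 15.4 on day 7 and at 25.1 and 5.4 in sham. Grin3a (minus strand of chromosome 4) had a site on its 5′ side in all lists with 8.03, 9.95 and 10.8, against 11.9 in sham. Those Grin3a values come from peaks of 2905, 2905 and 2965 exonic bases on days 3, 7 and 14, against 1408 in sham. Another sham peak of this site, of 1318 bases, was at 28.9. Grin2c (minus strand of chromosome 11) had a 3′ UTR site with 5.19, 4.85 and 5.12, against 8.19 in sham. Grin2b (minus strand of chromosome 6) had a site at its 5′ UTR, chr6:136171458-136173481, with 4.69, 4.59 and 4.51, against 5.52 in sham. Sham values were also higher over all peaks, whose median fold enrichment was 4.54, 5.37 and 4.52 on days 3, 7 and 14, against 6.03 in sham.

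Merged over the lists, the members' peaks formed 43 sites, of which 20 (46.5%) were in all 4 lists, beside 43.1% of 47316 sites of all genes. Another 6 sites (14.0%, beside 9.24% of all sites) were in the lists of days 3 and 14 only, and 1 site, in Grin2a, was in the sham list only. By a reciprocal overlap of at least 50%, 12 of 39 member peaks of day 3 (30.8%), 17 of 36 of day 7 (47.2%) and 10 of 41 of day 14 (24.4%) were shared with sham. The matching shares of the 37 sham peaks were 29.7, 45.9 and 27.0%. With an overlap of 1 base, 26, 27 and 25 peaks of days 3, 7 and 14 were shared, which is 66.7, 75.0 and 61.0% of the day peaks, and 33, 32 and 34 sham peaks, which is 89.2, 86.5 and 91.9%. Sharing was not computed over all peaks, so these shares cannot be read as particular to the receptor genes.

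**Figure D4:**
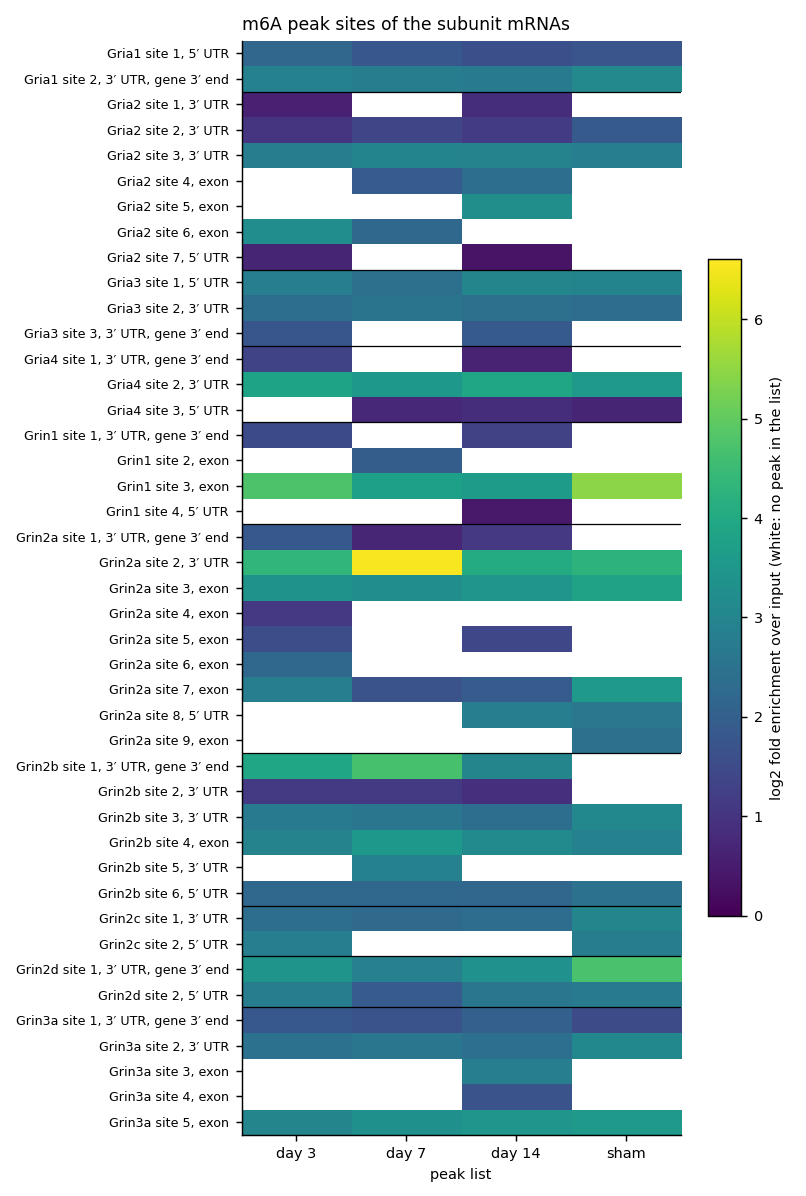
The 43 m6A peak sites of the 10 subunit genes (rows, in genome order within a gene) in the peak lists of day 3, day 7, day 14 and sham (columns). Colour is log2 fold enrichment over input of the peak with the smallest p, and white marks a list without a peak. Of these sites 20 are filled in all 4 lists and 6 in days 3 and 14 only.

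Member peaks covered more exonic bases in each injured list than in the sham list. Summed over the members they covered 25686 bases on day 3, 19167 on day 7 and 24117 on day 14, against 14777 in sham, and in 9 of 10 members the sham list covered the fewest (Grin2a was lowest on day 7). The same held for 55.1% of the 13953 genes with a peak in all lists, whose median covered length was 1017, 776 and 953 bases, against 686 in sham.

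The lists also differed at the end of the mRNA. A peak reached the annotated 3′ end of the gene, to within 1 base, in 8 of 10 members on day 3, 4 on day 7 and 8 on day 14, against 1 in sham. Of 13794 genes with a peak in all lists, 49.1, 32.6 and 43.6% had such a peak on days 3, 7 and 14, against 28.8% in sham. Within 100 bases of the end, 9, 6 and 9 members had one on days 3, 7 and 14, against 2 in sham, and 56.9, 42.1 and 53.8% of those genes, against 36.7%. The sham peak of Grin3a ended 30 bases and the day 7 peak of Grin2a 60 bases from it. To within 1 base, Gria3, Gria4, Grin1 and Grin2a had such a peak on days 3 and 14 only, Gria1, Grin2b and Grin3a on all 3 injured days, and Grin2d in every list. As a share of peaks, 20.5, 11.1 and 19.5% of member peaks reached the end on days 3, 7 and 14, against 2.70% in sham, and 22.2, 15.2 and 19.3% of all peaks, against 13.4%. For Grin1 the site was chr2:25291181-25292319, with a fold enrichment of 2.80 on day 3 and 2.48 on day 14 and a log10 p of -302 and -238, and no peak there on day 7 or in sham. RefSeq places 2 other genes, Lrrc26 and Grin1os, over part of the span of Grin1. Their overlap with this site is not given here, and the sources used do not say whether reads were assigned by strand. The lists with fewer such peaks, day 7 and sham, are those of the groups that hold the input libraries standing apart, and the part of this in the peaks was not tested.

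**Figure D5:**
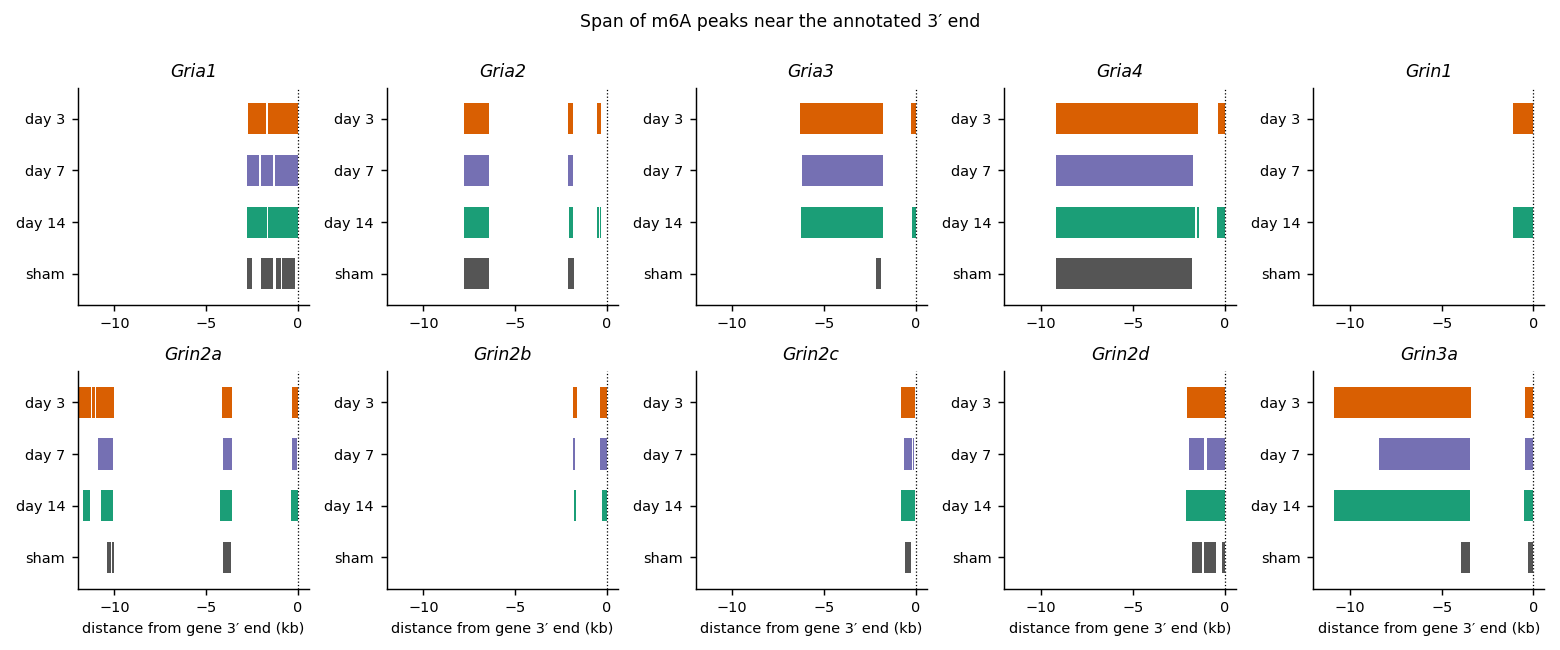
Span of each m6A peak within 12 kb of the annotated gene 3′ end (horizontal axis, kb, 0 at the end) for each subunit, with day 3, day 7, day 14 and sham from top to bottom; spans may include introns. Peaks reach 0, to within 1 base, in 8 members on day 3 and 8 on day 14, against 1 in sham.

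Internal m6A of mRNA is known to fall mostly in the motif DRACH. DRACH is A, G or T, then A or G, then AC, then A, C or T. The first 50 transcribed bases were in the RefSeq promoter table (GRCm38.p6) and at least partly within the span of a peak for 5 members: Gria2, Gria4, Grin1, Grin2c and Grin2d. For Grin1 only 20 of these bases were in a peak. The 2 that held the motif on the transcribed strand are printed because a peak covers it. The matches printed are GGACT, given in capitals 5′ to 3′ on the minus strand; the Gria2 stretch is chr3:80802799-80802827, under the day 3 peak only, and the Gria4 stretch is chr9:4796206-4796234, under the peaks of day 7, day 14 and sham. Gria2 holds another match, TGACT, at chr3:80802791-80802795 under the same peak.
Gria2: cacgcgcgcccgGGACTgcctgcccctct
Gria4: agcagaagcGGACTaggctgggcaaggct
Of 32851 such windows of all genes, 54.4% held DRACH on the transcribed strand and 80.4% on either strand, and 18.9% and 33.3% held GGAC, which DRACH overlaps. These peaks were weak, with a fold enrichment of 1.60 for Gria2 on day 3 and of 1.69 on day 7 and 1.83 on day 14, against 1.62 in sham, for Gria4. A match is a description of the letters and not a mapped methylated base. Whether these peaks at the start of the mRNA mark internal m6A was not tested.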

How the data were processed

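Input RNA levels were analysed as deposited FPKM, per the file headers, 1 column per input library. Per the file headers, the deposited peak lists give a fold enrichment over input as a ratio and a score, the base 10 logarithm of p. HISAT2, StringTie, edgeR and ChIPseeker are named in the submitters' processing notes, without versions; the sources used here do not give the peak caller, the build or whether replicates were pooled. Of 26126 symbols matched to RefSeq GRCm38.p6 genes, 99.9% overlapped the gene of that name. Depth is unknown, so no counting error is given.

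Genes with a mean of at least 0.5 FPKM (15564, all 10 members among them) were fitted as log2(FPKM + 0.5), which understates changes of low genes, with limma 3.58.1 in R 4.3.3 (trend), as 4 group means in 1 fit; a gene passed below an adjusted p of 0.05. The fit was tested on simulated data whose spread was taken without day 7 library 3 and sham library 3. That test therefore does not show what the fit of all libraries could detect. Same-numbered libraries of day 7 and sham deviated together from their group means (r = 0.459, 0.534 and 0.793), so the replicate number was tried as a block. Day 7 library 1 with sham library 2 (0.492) and day 7 library 2 with sham library 1 (0.619) did likewise, so these values do not show pairing by number. No other 2 groups had all their pairs above 0.1. Shares were compared with exact 2-sided permutation tests. Sites are peaks of a gene merged where they overlap by 1 base. Alternatives were other pseudocounts, filters and scalings, a replicate block, single pairs of groups, robust variances, leaving out libraries, and stricter peaks and overlaps; leaving out day 7 library 3 with sham library 3, or a term for them, and a block in a fit of day 7 and sham alone, were added after seeing the data. Members and lists were chosen with earlier results of these data known. All members are named; of the glutamate synapse lists, genes that passed or had the 2 smallest p, of which not all are reported here; for alike genes, the 3 of highest r. Of the members, 6 overlap another RefSeq gene over part of their span.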

Additional observations from a re-analysis of the deposited data

Results flagged for a closer look

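Grin2c was on opposite sides of the sham mean on different days: every day 14 library lay above it and every day 3 and every day 7 library below it. The day 14 mean exceeded the day 3 mean by 0.470 FPKM and the day 7 mean by 0.668 FPKM. The differences between days were tested with limma and did not pass, at adjusted p-values of 1.0 and 0.784 with all libraries and 0.196 and 0.0822 without day 7 library 3 and sham library 3. All 3 day 14 libraries exceeded all libraries of day 3 and of day 7, and 21.6% and 17.2% of all tested genes were apart in these comparisons. Without sham library 3 the sham mean was 3.26 FPKM instead of 3.17 FPKM, and day 14 library 2, at 3.24 FPKM, lay below it.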

How the results depend on the processing

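The count of members that passed was 0 in 101 of 103 recalculations over the 6 comparisons. It became 1 (Grin1) on day 14 against day 3 and 1 on day 14 against day 7 without day 7 library 3 and sham library 3. Most of the recalculations kept at least 1 of those libraries, with the spread it adds. Those limited to genes at a mean of at least 5 FPKM tested 6 members. With a replicate block in the fit of all groups 0 members passed in each comparison. With it 5, 9 and 8 genes passed on days 3, 7 and 14 against sham, where 9, 16 and 8 did without it. In deviations from group means, 8 of 12 libraries correlated best with one of their own number. Among them were day 7 library 3 and sham library 3 with each other (r = 0.793). These values do not show pairing by number, and the labels give none. Of 574 recalculated member log2 fold changes, 42 changed sign and none of these passed. Without day 7 library 3 and sham library 3 they were -0.0297, 0.00368 and -0.199 for Grin1, Grin2a and Grin2d on day 3, 0.00310 and -0.0314 for Gria4 and Grin2a on day 7, and 0.0182, -0.129 and 0.00232 for Gria1, Grin2d and Grin3a on day 14. With a term for those libraries they were 0.00296, -0.0592, 0.0259 and -0.207 for Gria1, Grin1, Grin2a and Grin2d on day 3, and 0.0379, -0.137 and 0.0212 for Gria1, Grin2d and Grin3a on day 14. Rescaling to TPM gave -0.00783 for Grin2d on day 3 and 0.000640 for Gria4 on day 7, and median-of-ratios scaling -0.00342 for Grin2a on day 7. The cause was not tested.

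Leaving out 1 library at a time gave ranges across 0 as follows. On day 3 they were -0.0297 to 0.425 for Grin1, -0.399 to 0.00368 for Grin2a and -0.199 to 0.169 for Grin2d. On day 7 they were -0.0843 to 0.177 for Gria1, -0.159 to 0.00499 for Gria2, -0.117 to 0.119 for Gria4, -0.393 to 0.255 for Grin1, -0.277 to 0.259 for Grin2a, -0.280 to 0.126 for Grin2b, -0.358 to 0.131 for Grin2d and -0.0877 to 0.179 for Grin3a. On day 14 they were -0.152 to 0.0182 for Gria1, -0.129 to 0.239 for Grin2d and -0.191 to 0.00232 for Grin3a. Differences in share, in percentage points, ran from -0.159 to 0.0153 for Gria2 on day 14, from -5.26 to 2.23 for Grin2a on day 3 and from -3.28 to 6.01 for Grin2a on day 7. Without day 7 library 3 and sham library 3 they were 0.0153 for Gria2 on day 14 and 2.23 for Grin2a on day 3, where medians gave 0.755.

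Stricter limits left 25 member peaks on day 14. Shared peaks on days 3, 7 and 14 numbered 26, 27 and 25 at 1 base, whether of spans or of exonic blocks, and 6, 6 and 3 at a reciprocal 80%; within stricter lists 10 of 26, 15 of 27 and 8 of 25 were shared. Limits are the absence of read counts, 1 peak list per group, sham of a single day and the spread added by day 7 library 3 and sham library 3, which widens every interval of the fit of all libraries. Over alternatives, 2 to 1101 genes passed on day 3, 1 to 176 on day 7 and 4 to 733 on day 14 against sham.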
